A study of Mus musculus with 42 samples.

Results

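The genes described here are 6 mouse genes of arginine and itaconate metabolism (Nos2, Acod1, Ass1, Slc7a2, Gch1 and Sod2), out of 21897 protein-coding genes measured. They were chosen by symbol. RNA polymerase II (Pol II) was taken over each gene body with 500 bp on either side. H3K27ac, the acetylated histone mark of active promoters and enhancers, was taken within 2500 bp of the gene start and in regions within 50 kb of it. Both were measured by chromatin immunoprecipitation with sequencing in bone marrow-derived macrophages (BMDMs) of male C57Bl6/J mice aged 6 to 12 weeks, cultured for 7 days with L929-conditioned medium. The mice were wild type (WT) or lacked Nur77, the nuclear receptor encoded by Nr4a1, throughout the body (KO). The KO line came from Cre under a cytomegalovirus promoter acting on a loxP-flanked Nr4a1 locus, and mice without Cre were then bred from it, according to the study's methods, although the GEO genotype label of the samples reads "cre". WT littermates were the controls. Cells were untreated (0 h) or given 100 ng/ml lipopolysaccharide (LPS), the bacterial wall component sensed by Toll-like receptor signalling, for 1 or 18 h. Each of the 6 groups had 3 libraries per antibody and 1 input. The study's methods call replicates biological, and neither they nor the labels say whether the 3 libraries came from separate mice, so the p-values measure the spread between these libraries.

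Activated macrophages turn arginine into nitric oxide and the citric acid cycle intermediate cis-aconitate into itaconate. Inducible nitric oxide synthase (Nos2) turns arginine into nitric oxide and citrulline and needs tetrahydrobiopterin, whose synthesis begins with GTP cyclohydrolase (Gch1). The cationic amino acid transporter encoded by Slc7a2 brings arginine into the cell, and argininosuccinate synthase (Ass1) recycles citrulline towards arginine. Acod1 is the enzyme that makes itaconate, and Sod2 is the mitochondrial superoxide dismutase. LPS is known to induce Nos2, Acod1, Gch1 and Sod2 in macrophages.

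Values are normalized tag counts of regions that the authors called in each library, in tags per 10 M, and a gene listed at 0 is one where no region was called, not one without reads. Total tags ranged from 21.7 to 36.1 M in the 18 Pol II libraries, from 13.5 to 55.4 M in the 18 H3K27ac libraries and from 25.6 to 45.3 M in the 6 inputs. The 8 macrophage markers (among them Csf1r, Adgre1 and Itgam) were found in every group with both antibodies, and at 0 h their summed Pol II was 22549 to 26634 in WT and 25434 to 27384 in KO, against 30.3 to 60.4 and 26.8 to 40.7 for 6 fibroblast markers. After LPS the macrophage sum was lower in KO without overlap, at 33667 to 35670.1 in WT and 24846 to 25537 in KO at 1 h and at 46312 to 48879 in WT and 39414 to 42595 in KO at 18 h, and the part of this in the genotype differences below was not tested. At Nr4a1 itself, which is the deleted locus, Pol II was 189, 188 and 208 in WT and 87.8, 76.1 and 70.2 in KO at 0 h, 25.5, 23.0 and 30.4 in WT and 33.5, 39.0 and 36.6 in KO at 1 h, and 7.46, 5.98 and 0 in WT and 0 in all KO libraries at 18 h. KO libraries were thus lower at 0 h and higher at 1 h. The sources used here do not say which exons are lost, so Pol II over the whole gene does not check the labels. Pol II libraries of 1 group correlated at 0.985 to 0.993 across genes. Of the H3K27ac libraries, those labelled KO 1 h replicate 1 and KO 18 h replicate 1 correlated at only 0.913 and 0.915 with the mean of their own group over 10438 genes. The library labelled KO 1 h replicate 1 was closest to WT 1 h, at 0.983. The KO 18 h replicates 2 and 3 correlated with each other at 0.993, above their 0.984 and 0.983 with the mean of WT 18 h. H3K27ac genotype differences called for a gene or region named below are therefore given with and without the first libraries of KO 1 h and KO 18 h.

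Positions are in mm10 with the bounds of GENCODE vM21. Nos2 is at chr11:78920787-78960254, plus strand, Acod1 at chr14:103046977-103056573, plus strand and Ass1 at chr2:31470207-31520672, plus strand. Slc7a2 is at chr8:40862396-40922308, plus strand, Gch1 at chr14:47153895-47189413, minus strand and Sod2 at chr17:13006846-13040063, plus strand. ChIP reads carry no strand, so tags of overlapping genes cannot be told apart: the Slc7a2 start overlaps the lincRNA Gm26584, and Gch1 holds the pseudogenes Gm49134 and Gm18811.

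RefSeq promoter sequences (GRCm38.p6, the build of mm10) were matched for Acod1, Ass1, Gch1 and Sod2. In the 250 bases before each start, on both strands, 4 motif forms were searched: TGAGTCA, with its reverse complement TGACTCA (AP-1), AAAGGTCA (the Nur77 response element NBRE), GAAA, 2 free bases and GAAA (interferon response core) and GGGA followed after 4 free bases by CC (a form of the kappa B site). The promoters of Acod1 and Ass1 each held 1 match, both to the kappa B form, at -55 to -46 (Acod1) and -152 to -143 (Ass1) from the RefSeq start. This form was in 17.6% of the 32851 promoters in the table. The AP-1 form was in 4.46% of all promoters, the NBRE in 1.34% and the interferon core in 2.98%, and none of the 4 forms was matched in the Gch1 and Sod2 windows. A match is a description of letters, not a binding site. The sequences with a match are printed because both genes had lower Pol II in KO at 1 h. Nos2, which had the largest fall, and Slc7a2 had no entry in the promoter table, so their promoters were not searched. They run 5′ to 3′ and stop before the first exonic base of GENCODE, with the match in capitals. Acod1 (chr14:103046762-103046976, plus strand) and Ass1 (chr2:31470020-31470206, plus strand) read:
Acod1: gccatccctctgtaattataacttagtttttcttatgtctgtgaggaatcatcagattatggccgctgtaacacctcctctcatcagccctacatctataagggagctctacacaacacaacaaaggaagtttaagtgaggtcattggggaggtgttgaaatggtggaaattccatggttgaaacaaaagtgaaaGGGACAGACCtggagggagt
Ass1: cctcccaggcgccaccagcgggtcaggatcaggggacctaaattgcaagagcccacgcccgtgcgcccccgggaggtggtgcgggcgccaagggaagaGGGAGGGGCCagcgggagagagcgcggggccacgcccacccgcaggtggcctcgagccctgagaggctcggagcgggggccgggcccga

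The levels of the 6 genes, compared as normalized Pol II tags per kb of gene window, changed order with LPS. In WT cells at 0 h the order was Acod1 (11.1 ± 0.962 per kb, SD, n = 3), Sod2 (9.23 ± 0.369), Gch1 (6.25 ± 0.776), Nos2 (0.680 ± 0.125), and Slc7a2 (0.0424 ± 0.0735) with Ass1 (0.0404 ± 0.0699) last. Of neighbours in that order, Slc7a2 and Ass1 overlapped. At 1 h the WT order was Acod1 (2289 ± 77.4 per kb), Sod2 (174 ± 3.28), Slc7a2 (47.9 ± 0.237), Gch1 (45.9 ± 0.988), Nos2 (13.5 ± 1.19) and Ass1 (0.405 ± 0.0808). No neighbours in that order overlapped. At 18 h Nos2 (286 ± 17.1 per kb) came next after Acod1 (1046.5 ± 419), and Slc7a2 (2.12 ± 0.570) was last, after Ass1 (5.71 ± 0.287), without overlap. In KO cells Acod1 (2.69 ± 1.14 per kb) came after Sod2 (7.71 ± 0.535) and Gch1 (7.25 ± 0.171) at 0 h, which overlapped each other and not Acod1. At 18 h in KO Slc7a2 (8.98 ± 0.136 per kb) came directly after Gch1, above Ass1 (3.66 ± 0.385). In the inputs the highest value over any Pol II window was 226 tags, at Acod1, and over any H3K27ac window 86.2 tags, also at Acod1.

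**Figure D1:**
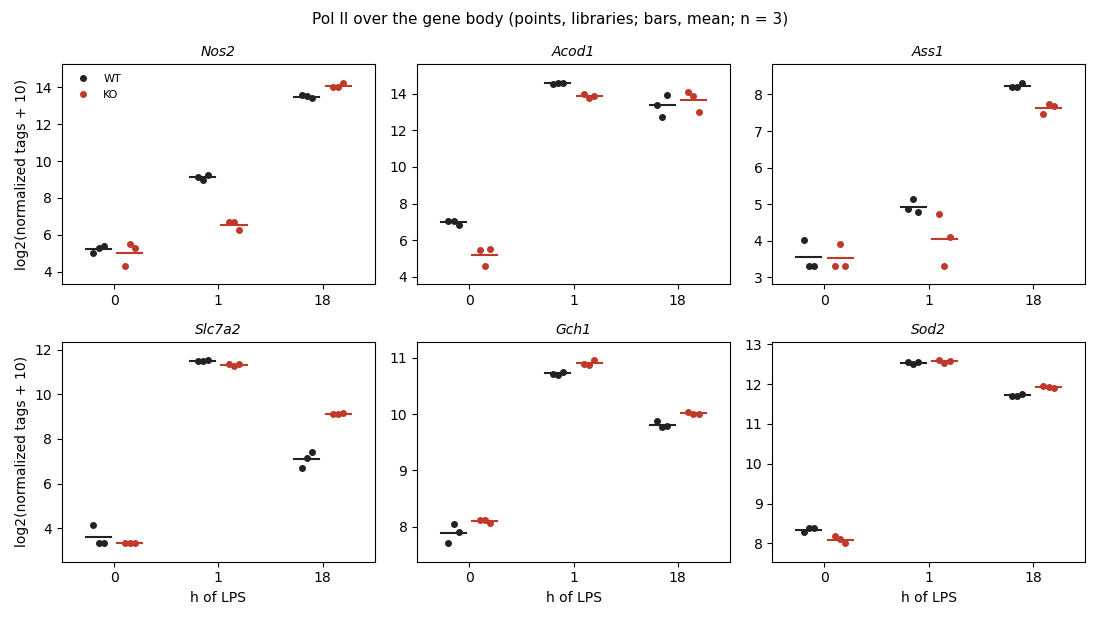
Pol II over each gene body (log2 of normalized tags plus 10, vertical axis) against h of LPS (horizontal axis), with WT in black and KO in red, 1 point per library and a bar at the mean of 3. Nos2 separates the genotypes at 1 h (WT 498 to 594, KO 67.6 to 93.6 tags) and Slc7a2 at 18 h (WT 93.9 to 163, KO 540 to 556 tags).

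Differences were tested with limma on log2(normalized tags + 10), with Benjamini-Hochberg adjustment over all genes, and the threshold for a call was an adjusted p of 0.05. All log2 changes below are on that scale, which understates the change of low genes. For Pol II in KO against WT, 2 of 4 members tested were called at 0 h, both lower, beside 6.96% (4.23% higher and 2.73% lower) of all genes tested. At 1 h, 4 of 6 were called, 1 higher and 3 lower, beside 45.7% (38.2% higher and 7.49% lower) of all genes. At 18 h, 2 of 6 were called, both higher, beside 21.1% (7.58% higher and 13.5% lower) of all genes. The median log2 difference over the members tested was -0.22 at 0 h, -0.45 at 1 h and 0.25 at 18 h, and over all genes tested it was 0.04, 0.24 and -0.10. A member's difference at 1 h is thus read against a general shift of 0.24. The calls of Acod1 at 0 h, Nos2 at 1 h and Slc7a2 at 18 h held whichever replicate was left out. Every other genotype call was lost without at least 1 replicate, and the number of members called was then 1 or 2 at 0 h, 1 or 2 at 1 h and 1 to 3 at 18 h.

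LPS changed Pol II at most members in both genotypes. In WT at 1 h all 6 were called, each higher, beside 86.9% (18.6% higher and 68.4% lower) of all genes. At 18 h in WT all 6 were again called higher, beside 66.6% (33.3% higher and 33.3% lower). In KO, 5 of 6 were called at 1 h, each higher, beside 82.9% (20.6% higher and 62.2% lower), and all 6 at 18 h, each higher, beside 70.2% (28% higher and 42.1% lower). Median changes over the members were 4.04 and 4.09 in WT and 3.64 and 4.95 in KO, against -0.82, -0.0042, -0.62 and -0.18 over all genes. Those medians depend on the added 10 where a gene was listed at 0 in a group. The LPS change differed between genotypes, by the interaction term, at 2 of 6 members at 1 h beside 18.4% (14.2% higher and 4.2% lower) of all genes and at 3 of 6 at 18 h beside 14.8% (4.85% higher and 9.93% lower). The median interaction over all genes was 0.17 at 1 h and -0.14 at 18 h.

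For H3K27ac at the gene start, all 6 members were called higher after LPS at both times in both genotypes: in WT at 1 h beside 54.6% (25.3% higher and 29.3% lower) of all genes and at 18 h beside 50% (23.5% higher and 26.4% lower), and in KO at 1 h beside 46.9% (20.4% higher and 26.5% lower) and at 18 h beside 52.6% (18.4% higher and 34.2% lower). Median changes over the members tested were 2.90 and 2.34 in WT and 2.26 and 2.55 in KO, against -0.05, -0.03, -0.06 and -0.15 over all genes. Between genotypes 0 of 5 members were called at 0 h by limma (1 had an unadjusted p under 0.05) beside 0.77% (0.465% higher and 0.305% lower) of all genes, 2 of 6 (Slc7a2 and Acod1, both lower) at 1 h beside 18.5% (11.1% higher and 7.41% lower), and 0 of 6 at 18 h (1 with an unadjusted p under 0.05) beside 3.24% (0.951% higher and 2.29% lower). No interaction was called by limma for a member, at 1 h (1 of 6 with an unadjusted p under 0.05, 0.543% of all genes called) or at 18 h (1 of 6, 0.63% called). Slc7a2 lost its LPS call at 18 h in both genotypes without replicate 2 or replicate 3 of each group, and in KO at 1 h without replicate 3, so that 5 of 6 were then called. Its 1 h rise in KO was 1.74 with all libraries and 0.88 (adjusted p = 0.0027) without replicate 1 of each group. Neither genotype call held without replicate 2 or without replicate 3 of each group. Without the first libraries of KO 1 h and KO 18 h alone, 1 member was called at 0 h (Acod1), 3 at 1 h (Slc7a2, Gch1 and Acod1), 2 at 18 h (Slc7a2 and Sod2), and the interaction of 2 members at 1 h (Slc7a2 and Gch1) and of 0 at 18 h.

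Nos2 was the member with the largest fall of Pol II in KO at 1 h. Pol II over Nos2 was 22.1, 28.5 and 32.0 tags in the WT libraries at 0 h and 9.97, 35.3 and 28.6 in KO. After 1 h of LPS the values were 548, 498 and 594 in WT and 93.6, 92.2 and 67.6 in KO. The genotypes overlapped at 0 h and did not at 1 h, when the lowest WT library held more than 5 times the highest KO library. The KO minus WT difference was -0.19 ± 0.21 (SE; adjusted p = 0.698) at 0 h and -2.57 ± 0.21 (SE; adjusted p = 9.37e-08) at 1 h. The rise over 1 h of LPS was 3.90 for WT and 1.52 for KO (SE 0.21 each, both called), and the interaction was -2.38 ± 0.30 (SE; adjusted p = 5.02e-05). Within 500 bp of the start the 1 h values were closer, at 16.5, 18.3 and 22.3 in WT and 17.4, 12.6 and 15.6 in KO, a difference of -0.20 (adjusted p = 0.13) that was not called. Called regions covered 62.0 to 85.7% of the Nos2 window in WT at 1 h and 12.1 to 17.8% in KO. When all tags of the merged locus were counted, which reaches past the gene, the difference at 1 h was -1.14 (adjusted p = 1.1e-11).

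By 18 h the order of the genotypes at Nos2 had turned. Pol II stood at 12112, 11797 and 10786 tags in WT and 16659, 16290.1 and 19543 in KO, with no overlap, and regions covered the whole window in all 6 libraries. The difference of 0.59 ± 0.21 (SE; adjusted p = 0.0557) missed the threshold over the gene body. It was called over the merged locus, at 0.64 (adjusted p = 7.3e-08), and after median centring, at 0.73 (adjusted p = 0.018). The region over the gene was 67 to 73 kb long in WT and 67 to 74 kb in KO. Only 56 to 60% of its tags in WT and 55 to 60% in KO were shared to the window. The merged locus, chr11:78911988-78985947, runs past the end of Nos2. Whether the difference lies in Nos2 or beyond its end was not tested. The rise from 0 to 18 h was 8.28 in WT and 9.06 in KO, and the interaction of 0.78 ± 0.30 (SE; adjusted p = 0.0921) was not called.

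H3K27ac within 2500 bp of the Nos2 start overlapped between the genotypes at each time. At 0 h it was listed at 0 in all 3 WT libraries and was 0, 5.71 and 0 in KO. The 1 h values were 93.7, 67.7 and 70.9 in WT and 28.3, 72.8 and 164 in KO, and at 18 h 598, 577 and 575 in WT and 474, 597 and 519 in KO. Neither the 1 h nor the 18 h difference was called (-0.08 and -0.14). Without the first KO libraries the 1 h difference turned to 0.47 (adjusted p = 0.12), also not called, and that at 18 h was -0.07 (adjusted p = 0.879). At 18 h the region over the start was 12.9 to 13.7 kb long in WT and 17.9 to 25.5 kb in KO, which dilutes the KO values more. All tags of the merged H3K27ac locus at 18 h were 1572, 1596 and 1619 in WT and 2412, 2261 and 2079 in KO, higher in all KO libraries, the opposite direction. The acetylated region with the highest mean among those away from the start, chr11:78868562-78892826, has its near end at -27961 bp from the start. It held 356, 359 and 361 tags in WT and 281, 202 and 248 in KO at 1 h, and 1456, 1451 and 1390.5 in WT and 2228, 1784 and 1565 in KO at 18 h. KO was lower in all libraries at 1 h and higher in all at 18 h, with differences of -0.55 ± 0.12 (SE; adjusted p = 0.00468) and 0.36 ± 0.12 (SE; adjusted p = 0.0652) that did not reach the size required of a region (a log2 change over 1).

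A further 3 acetylated regions, which were listed at 0 in all libraries at 0 and 1 h, appeared in Nos2 or just past it at 18 h. The region chr11:78939246-78956682, 18459 bp into the gene, held 63.5, 91.8 and 140.4 in WT and 538, 184 and 135 in KO. The region chr11:78933405-78936772 held 8.98, 7.23 and 0 in WT and 47.0, 27 and 7.18 in KO, and chr11:78960998-78965639 was listed at 0 in WT and held 59.6, 14.5 and 5.24 in KO. In each the first KO library was the highest. All 3 were called higher in KO, by 1.26, 1.16 and 1.57, and without the first KO libraries the differences were 0.69 (adjusted p = 0.0346), 0.76 (adjusted p = 0.0509) and 0.95 (adjusted p = 0.000204), none past the size required.

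Slc7a2, the arginine transporter gene, rose with LPS in both genotypes by 1 h and was higher in KO than in WT at 18 h. Over the gene body Pol II was 7.75, 0 and 0 tags in WT and was listed at 0 in all 3 KO libraries at 0 h. At 1 h it was 2905, 2911 and 2932 in WT and 2645, 2490.4 and 2579 in KO. At 18 h it was 93.9, 130.1 and 163 in WT and 539.9, 546 and 556 in KO. KO libraries were all below WT at 1 h and all above WT at 18 h. The difference was -0.18 ± 0.18 (SE; adjusted p = 0.431) at 1 h, which was not called, and 2.03 ± 0.18 (SE; adjusted p = 3.86e-07) at 18 h, which was. The interaction at 18 h was 2.31 ± 0.26 (SE; adjusted p = 1.24e-05). Called regions covered 10.3 to 18.6% of the gene window in WT at 18 h and 62.4 to 66.0% in KO. Within 500 bp of the start the 18 h values were 18.5, 19.2 and 20.3 in WT and 17.1, 16.6 and 17.3 in KO, a difference of -0.12 (adjusted p = 0.81) with the opposite sign, so the called difference lay in tags farther into the gene. LPS changes from 0 h were 7.92 at 1 h and 3.49 at 18 h in WT and 8.01 and 5.80 in KO, sizes that depend on the added 10 because the 0 h values were at or near 0.

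H3K27ac at the Slc7a2 start was 15.0, 11.5 and 22.0 tags in WT and 15.0, 18.4 and 14.9 in KO at 0 h. After 1 h of LPS the values were 239, 273 and 255 in WT and 262, 38.4 and 39.8 in KO, and at 18 h 90.1, 57.8 and 80.4 in WT and 40.5, 116 and 109 in KO. At 1 h KO replicates 2 and 3 were below all WT libraries, whereas KO replicate 1, which stood apart across genes, was within the WT range. The 1 h difference was -1.61 ± 0.49 (SE; adjusted p = 0.0348) with all libraries and -2.43 (adjusted p = 2.93e-08) without the first KO libraries. At 18 h it was 0.10 ± 0.49 (SE; adjusted p = 0.942) with all and 0.52 (adjusted p = 0.0411) without them. The call was lost without replicate 2 of each group, at -1.14 (adjusted p = 0.52), and without replicate 3, at -1.21 (adjusted p = 0.47).

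The largest called differences between genotypes among acetylated regions away from the start were at Slc7a2, at both 1 and 18 h, with all libraries. An intragenic region at chr8:40888683-40891636, 26287 bp past the start, held 82.2, 72.0 and 60.6 tags in WT and 6.51, 0 and 0 in KO at 1 h. At 18 h it held 118, 112 and 118 in WT and 0, 37.4 and 34.4 in KO. WT was above KO in all libraries at both times, by log2 differences of -2.78 ± 0.49 (SE; adjusted p = 0.00128) and -2.19 ± 0.49 (SE; adjusted p = 0.00969), and without the first KO libraries -3.02 (adjusted p = 2.55e-06) and -1.46 (adjusted p = 0.00421). Leaving out 1 replicate of each group gave 0 to 6 regions away from the start called at 1 h over the 6 genes, and 1 to 4 at 18 h. No 1 h call of such a region therefore held whichever replicate was left out. The neighbouring region chr8:40893030-40894694 was listed in WT at 18 h only, at 26.9, 22.6 and 26.6, and at 0 in every KO library, a difference of -1.82 ± 0.10 (SE; adjusted p = 1.4e-08). Its interaction at 18 h was -1.82 ± 0.15 (SE; adjusted p = 4.14e-06). Without the first KO libraries these were -1.82 (adjusted p = 1.11e-08) and -1.82 (adjusted p = 8.74e-07). Upstream, at chr8:40850347-40853186, values at 1 h were 51.8, 79.5 and 78.6 in WT and 33.6, 6.58 and 7.26 in KO, a difference of -1.77 ± 0.41 (SE; adjusted p = 0.00633) with all libraries and -2.22 (adjusted p = 5.16e-07) without the first KO libraries, and at 18 h 60.5, 35.9 and 46.7 in WT and 11.5, 61.7 and 47.7 in KO, which overlapped. Nearer the start, 2 upstream regions were higher in KO replicates 2 and 3 than in WT at 18 h, called only without the first KO libraries. The region chr8:40855059-40857009 was listed at 0 in WT and held 0, 9.26 and 23.5 in KO at 18 h, a difference of 0.90 ± 0.27 (SE; adjusted p = 0.0459) that did not reach the size required with all libraries and of 1.34 (adjusted p = 3.04e-05) without the first KO libraries. The region chr8:40857447-40860390, whose near end is at -2006 bp, held 0, 13.0 and 16.4 in WT and 9.84, 63.6 and 42.7 in KO at 18 h, a difference of 1.22 ± 0.48 (SE; adjusted p = 0.114) with all libraries and 1.77 (adjusted p = 0.000655) without. At 1 h it held 51.8, 44.2 and 53.4 in WT and 21.4, 0 and 0 in KO, lower in KO by -2.03 ± 0.48 (SE; adjusted p = 0.00736) with all and -2.58 (adjusted p = 6.11e-06) without.

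**Figure D2:**
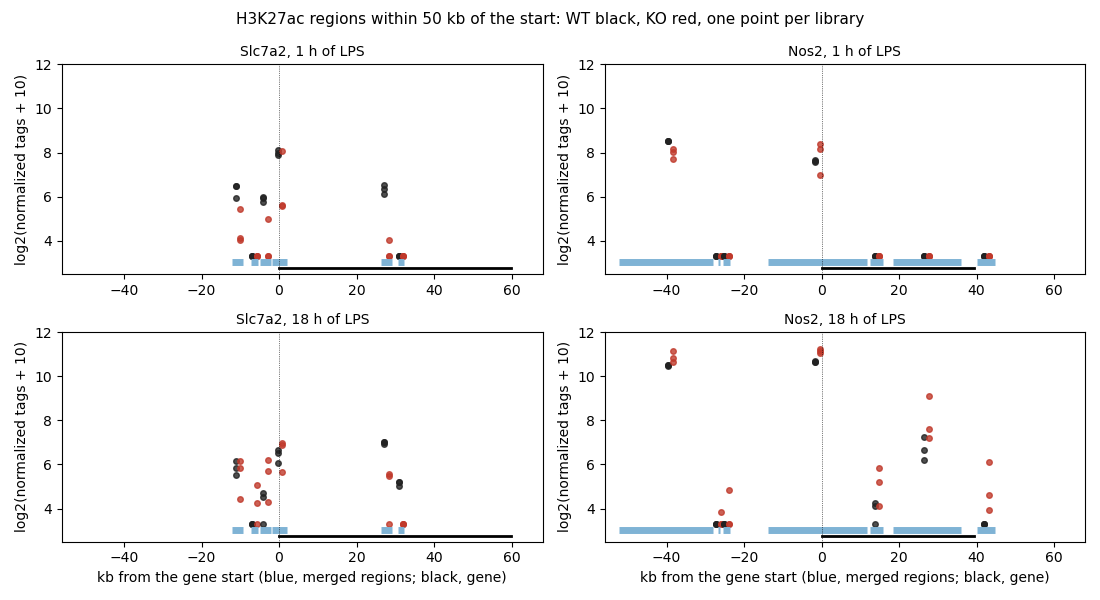
H3K27ac in each merged region within 50 kb of the start of Slc7a2 (left) and Nos2 (right) at 1 h (top) and 18 h (bottom), as log2 of normalized tags plus 10 (vertical axis) against kb from the gene start (horizontal axis), with 1 point per library, WT in black and KO in red, blue bars for regions and a black bar for the gene. In the Slc7a2 region 26287 bp past the start all WT points at 18 h (112 to 118 tags) lie above all KO points (0 to 37.4 tags).

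Ass1, which recycles citrulline, was among the lowest members at 0 and 1 h. Pol II rose by 1.38 at 1 h and 4.69 at 18 h in WT, and in KO the change was 0.54 ± 0.28 (SE; adjusted p = 0.0792) at 1 h, not called, and 4.11 at 18 h, called. Without replicate 2 of each group, whose KO library was listed at 0 at 1 h, the 1 h change in KO was 1.10 (adjusted p = 0.0023) and was called. Pol II was 6.23, 0 and 0 tags in WT and 0, 5.11 and 0 in KO at 0 h, where it was not tested. The 1 h values were 19.1, 25.6 and 17.8 in WT and 16.7, 0 and 7.33 in KO, and at 18 h 283, 288 and 310.4 in WT and 166, 205 and 194 in KO. KO libraries were below WT libraries at both times. The difference was -0.88 ± 0.28 (SE; adjusted p = 0.0158) at 1 h and -0.62 ± 0.28 (SE; adjusted p = 0.123) at 18 h, and only the first was called. The KO input at 1 h held 18.8 tags over the same window, more than each KO library. The 1 h call rests on values near the floor of region calling: it was lost without replicate 2, at -0.40 (adjusted p = 0.26), without replicate 3, at -0.98 (adjusted p = 0.091), and with 1 in place of the added 10, at -2.03 (adjusted p = 0.089). H3K27ac at the start was 8.61, 7.56 and 0 in WT and 0, 0 and 8.37 in KO at 0 h, 39.6, 36.0 and 46.2 in WT and 28.3, 52.2 and 44.8 in KO at 1 h, and 78.8, 69.6 and 70.2 in WT and 59.0, 65.7 and 57.9 in KO at 18 h. It was called higher by 1 h in both genotypes, by 1.76 in WT and 2.05 in KO.

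Upstream of Ass1, 2 acetylated regions differed between genotypes in opposite directions at 1 h. The nearer one, chr2:31450972-31457078, held 26.3, 8.2 and 29.5 tags in WT and 34.4, 161 and 158 in KO, and was called higher in KO, by 1.87 ± 0.39 (SE; adjusted p = 0.00387) with all libraries and 2.51 (adjusted p = 9.67e-07) without the first KO libraries. That call did not hold whichever replicate was left out, as the regions called at 1 h then numbered 0 to 6 over the 6 genes. The farther one, chr2:31438989-31449891, held 673, 748 and 670.3 in WT and 617, 310.2 and 315 in KO. Its first KO library was close to WT and the others were below all WT libraries. It was called lower in KO without the first KO libraries, at -1.13 (adjusted p = 2.55e-07), and the difference did not reach the size required with them, at -0.81. By 18 h the nearer region held 137, 136 and 146 in WT and 131, 164 and 120.0 in KO, which overlapped.

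Gch1, the entry enzyme of tetrahydrobiopterin synthesis, rose with LPS in both genotypes, at 1 h by 2.83 (WT) and 2.80 (KO). Over the 11 alternatives the 1 h change ranged from 0.27 to 3.63 in WT and from 0.48 to 3.38 in KO. The 18 h change ranged from 0.32 to 2.0 in WT and from -0.12, within 500 bp of the start, to 2.0 in KO. The highest adjusted p by limma was 0.086 and 0.068 in WT and 0.0064 and 0.51 in KO, at 1 and 18 h. Pol II stood at 199, 255 and 231 tags in WT and 268, 269 and 258 in KO at 0 h. At 1 h it was 1671, 1644 and 1716 in WT and 1888, 1873 and 1972 in KO, and at 18 h 926, 861 and 878 in WT and 1041, 1021 and 1011 in KO. KO libraries lay above WT libraries at each time, by 0.21 ± 0.07 (SE; adjusted p = 0.0883), 0.19 ± 0.07 (SE; adjusted p = 0.043) and 0.20 ± 0.07 (SE; adjusted p = 0.0542), of which that at 1 h was called, but not without any 1 replicate (adjusted p of 0.054 to 0.20). It was below the median shift of all genes at 1 h and turned to -0.06 (adjusted p = 0.39) after median centring. The 18 h difference was called higher in KO after median centring and over the merged locus, and was -0.48 within 500 bp of the start. The interactions were -0.03 at 1 h and -0.01 at 18 h, neither called. H3K27ac at the start was 825, 888 and 947 in WT and 857, 749 and 695 in KO at 1 h, a difference of -0.21 ± 0.08 (SE; adjusted p = 0.070) with all libraries and -0.29 (adjusted p = 0.00131) without the first KO libraries. The region at chr14:47158970-47161248, 28165 bp past the start inside the gene, was listed at 0 before LPS and held 77.7, 62.4 and 64.2 in WT and 73.7, 19.7 and 22.2 in KO at 1 h. KO replicates 2 and 3 were below all WT libraries, and the difference was -0.85 ± 0.40 (SE; adjusted p = 0.104) with all libraries and -1.33 (adjusted p = 0.000512) without the first KO libraries.

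Acod1, the itaconate-forming enzyme, had the highest Pol II per kb of the 6 genes after LPS in both genotypes. Over the gene body Pol II was 121, 125 and 106 tags in WT and 35.2, 14.5 and 35.7 in KO at 0 h. The inputs at 0 h held 30.6 tags in WT and 58.5 in KO over the same window, so all 3 KO libraries lay below their input, and the 0 h difference, the KO rise with LPS and the interactions rest on a KO level not above input. After 1 h of LPS the values were 23307, 24770.5 and 24680.4 in WT and 15836, 13888 and 14691 in KO. KO libraries were below WT libraries at both times without overlap. The differences were -1.78 ± 0.28 (SE; adjusted p = 0.000532) and -0.71 ± 0.28 (SE; adjusted p = 0.0469). Over the merged locus they were -0.87 (adjusted p = 2.3e-07) and -0.69 (adjusted p = 9.4e-07). The 1 h call over the gene body was lost without any 1 of the replicates, with adjusted p of 0.064 to 0.14. The rise over 1 h of LPS was 7.58 for WT and 8.64 for KO.

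At 18 h the gene-body values of Acod1 depended on how far a region was called. They were 10651, 6881 and 15737 in WT and 17517, 14801 and 8208 in KO, and the region over the gene was 21.8 to 54.1 kb long in WT and 19.8 to 53.1 kb in KO, so that a value shared out by overlap is diluted in the longer ones. All tags of the merged locus were 37166, 35100.0 and 35522 in WT and 35878, 35080.0 and 41099 in KO, which overlapped, and the difference was 0.05 (adjusted p = 0.64). The interaction at 18 h was 2.07 ± 0.40 (SE; adjusted p = 0.00183) over the gene body and 0.92 (adjusted p = 7.5e-06) over the merged locus, and both include the lower 0 h level of KO. Over the gene body that call was lost without replicate 1, at 1.98 (adjusted p = 0.064), or without replicate 2, at 1.33 (adjusted p = 0.072). H3K27ac at the Acod1 start was 29.1, 44.7 and 32.5 in WT and 18.4, 26.2 and 22.1 in KO at 0 h, 631, 636 and 618 in WT and 500.5, 489 and 442 in KO at 1 h, and 1042, 851 and 866 in WT and 776, 888 and 901 in KO at 18 h. KO was below WT in all libraries at 0 and 1 h and overlapped it at 18 h, and the KO input at 0 h was 21.9, within the range of the KO libraries. The difference was -0.49 ± 0.12 (SE; adjusted p = 0.0915) at 0 h, -0.39 ± 0.12 (SE; adjusted p = 0.0386) at 1 h and -0.10 ± 0.12 (SE; adjusted p = 0.709) at 18 h. It was called at 1 h, with -0.43 (adjusted p = 0.0105) without the first KO libraries, and then also at 0 h, at -0.49 (adjusted p = 0.0161). After LPS the H3K27ac region over the start was 27.7 to 61.5 kb long, so these values are an average of it. All tags of the merged H3K27ac locus were 6588, 6638 and 6525 in WT and 5500.2, 4058 and 4236 in KO at 1 h, and 8097, 8055 and 8181 in WT and 9536, 8855 and 8606 in KO at 18 h, below WT in all KO libraries at 1 h and above in all at 18 h. The region at chr14:103085589-103090834, 38612 bp past the start, was listed at 0 in all libraries at 0 h. It held 39.6, 38.5 and 75.4 in WT and 54.4, 12.7 and 26.0 in KO at 1 h, which overlapped, with a difference of -0.65 ± 0.30 (SE; adjusted p = 0.10) with all libraries and, called, of -1.05 (adjusted p = 0.00153) without the first KO libraries. The interaction at 1 h was then -1.05 (adjusted p = 0.0145). It held 96.8, 89.8 and 101 in WT and 139, 119 and 92.9 in KO at 18 h.

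Sod2, the mitochondrial superoxide dismutase, rose at 1 h of LPS, by 4.19 in WT cells and 4.48 in KO cells, with small differences between genotypes. Pol II was 301, 324 and 322 tags in WT and 282, 264 and 246 in KO at 0 h. The 1 h values were 6033, 5823 and 5997 in WT and 6192, 5929 and 6123 in KO, and at 18 h 3315, 3314 and 3469 in WT and 3932, 3877 and 3852 in KO. KO was below WT in all libraries at 0 h, overlapped it at 1 h and was above it in all at 18 h. The differences were -0.25 ± 0.05 (SE; adjusted p = 0.00644), 0.03 ± 0.05 (SE; adjusted p = 0.651) and 0.21 ± 0.05 (SE; adjusted p = 0.010), and the interactions 0.28 ± 0.08 (SE; adjusted p = 0.0156) and 0.46 ± 0.08 (SE; adjusted p = 0.000517). The calls at 0 and 18 h and the interaction at 1 h were lost without replicate 2 or without replicate 3 (adjusted p of 0.051 to 0.21), and the interaction at 18 h held. Relative to the median of all genes, the 1 h difference was -0.22 (adjusted p = 0.0030), with the opposite sign, and the 1 h interaction was 0.06 (adjusted p = 0.60), no longer called. H3K27ac at the start was 113, 102 and 125 in WT and 119, 111 and 115 in KO at 0 h and 619, 525 and 538 in WT and 682, 844 and 676 in KO at 18 h. KO was above WT in all libraries at 18 h, by 0.38 ± 0.13 (SE; adjusted p = 0.133) with all libraries, not called, and by 0.43 (adjusted p = 0.0404) without the first KO libraries. A region beyond the end of the gene, chr17:13047567-13058345, rose late in both genotypes, from 242, 257 and 217 in WT and 199, 118 and 130.4 in KO at 1 h to 1282, 1315 and 1279 in WT and 778, 1422 and 1366 in KO at 18 h.

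**Figure D3:**
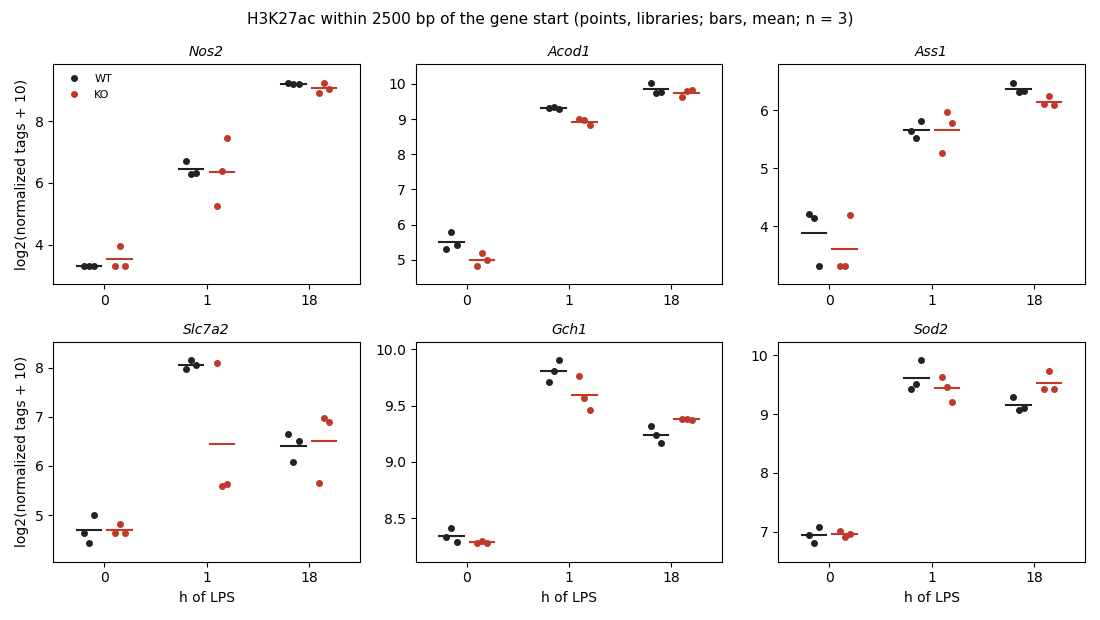
H3K27ac within 2500 bp of each gene start (log2 of normalized tags plus 10, vertical axis) against h of LPS (horizontal axis), with WT in black and KO in red, 1 point per library and a bar at the mean of 3. All 6 genes lie higher after LPS than at 0 h, and the first KO library at 1 h lies with WT at Slc7a2 (262 tags, against 38.4 and 39.8 in the other KO libraries).

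**Figure D4:**
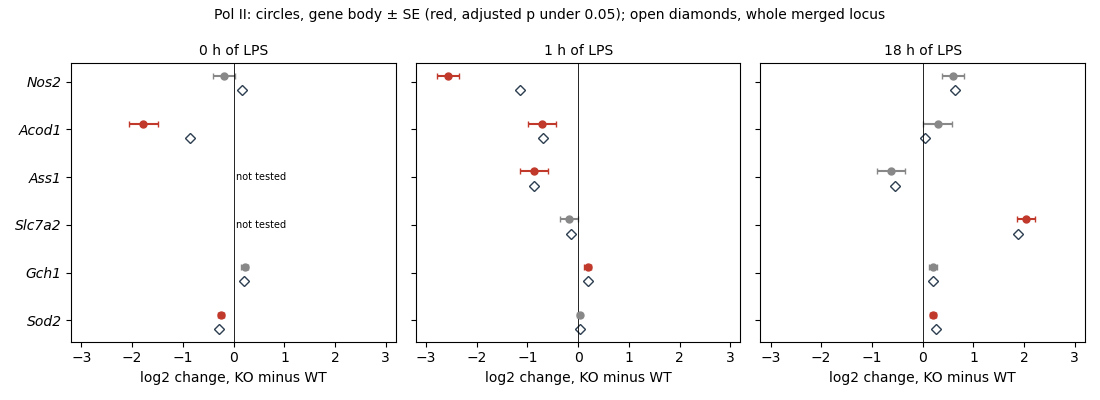
KO minus WT log2 difference in Pol II for each gene at 0, 1 and 18 h of LPS (horizontal axis), with circles and SE bars for the gene body, red where the adjusted p was under 0.05, and open diamonds for all tags of the merged locus. The largest difference at 1 h is at Nos2 (-2.57, and -1.14 over the merged locus), and at 18 h at Slc7a2 (2.03).

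Over all 6 genes, 43 merged H3K27ac regions lay within 50 kb and away from the start. A region was called at an adjusted p under 0.05 and a log2 change over 1 either way. Between genotypes limma called 0 of 14 tested at 0 h (4 with an unadjusted p under 0.05, 1.85% of all regions called). At 1 h it called 3 of 16, 1 higher and 2 lower (14.1% of all regions, 9.64% higher and 4.43% lower). At 18 h it called 5 of 22, 3 higher and 2 lower (3.74%, 2.62% higher and 1.12% lower). The called ones were those of Ass1, Slc7a2 and Nos2 given above. With LPS in WT, 8 regions rose and 0 fell at 1 h of 16 tested (40.8% of all regions called, 14.9% higher and 25.9% lower). At 18 h in WT 10 rose and 0 fell of 20 (38.9%, 13.5% higher and 25.5% lower). In KO, 6 rose and 1 fell at 1 h of 16 (27.3%, 10.6% higher and 16.7% lower). At 18 h in KO 11 rose and 1 fell of 23 (40.1%, 13.7% higher and 26.4% lower). The region that fell in KO was the same at both times and lies past the end of Gch1. Without the first libraries of KO 1 h and KO 18 h, 1 region was called between genotypes at 0 h (past the end of Gch1), 6 at 1 h (2 each at Ass1 and Slc7a2 and 1 each at Acod1 and Gch1) and 3 at 18 h (all at Slc7a2, 2 lower and 1 higher in KO).

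A further 43 genes of arginine, polyamine, biopterin, citric acid cycle and antioxidant metabolism were read the same way. In KO against WT, Pol II was called higher at 1 and lower at 2 of 37 tested at 0 h, beside 6.96% of all genes called, with log2 differences of Prdx1 0.51 above WT and Gatm -0.80 and Slc7a6 -0.46 below. At 1 h Pol II was higher at 17 and lower at 1 of 34, the largest being Smox 1.52 (spermine oxidase, 69.2, 40.7 and 71.9 tags in WT and 212, 195 and 162 in KO) and Sdha 0.85 (a succinate dehydrogenase subunit) above and Slc25a10 -0.30 below. That share of higher genes, with a median of 0.26, stands beside 38.2% of all genes with a median of 0.24. At 18 h it was higher at 3 and lower at 4 of 37, beside 21.1% of all genes, led by Slc7a1 0.74 (a cationic amino acid transporter) and Aco1 0.47 above, and Agmat -1.04 and Prdx1 -0.40 below. At 18 h no KO library had a region called over Agmat, and WT held 0, 21.4 and 17.5, so its change depends on the added 10. Prdx1 held 15307, 14961 and 24437 in WT and 13300.0, 12933 and 14164 in KO at 18 h, and without replicate 3, which holds the high WT library, its difference was -0.21 (adjusted p = 0.197). The call of Prdx1 was also lost without replicate 1 or without replicate 2. The LPS change differed between genotypes at 11 of 37 at 1 h, beside 18.4% of all genes, led by Smox 1.65, Oat 0.83 and Slc25a10 -0.41, and at 3 of 38 at 18 h, beside 14.8%, Odc1 0.41, Slc3a2 0.37 and Prdx1 -0.91. Leaving out 1 replicate lowered most of these counts. Between genotypes 1 gene was then called at 0 h, 11 at 1 h without replicate 1, 9 without replicate 2 and 13 without replicate 3, and 5, 3 and 1 at 18 h. The interactions called numbered 9, 1 and 4 at 1 h and 4, 1 and 1 at 18 h, in the same order.

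With LPS, Pol II at these 43 genes was read beside the shares of all genes called. In WT 6 rose and 25 fell of 37 at 1 h, beside 18.6% higher and 68.4% lower of all genes, led by Sms 1.31 (spermine synthase), Txnrd1 0.87, Gatm -3.21 and Pycr1 -2.42, and in KO 8 rose and 24 fell, beside 20.6% and 62.2%, led by Sms 1.79, Txnrd1 1.19, Gatm -2.42 and Pycr1 -2.90. At 18 h 15 rose and 13 fell of 38 in WT, beside 33.3% and 33.3%, led by Cat 1.96 (catalase), Prdx1 1.33, Slc13a3 -2.31 and Nos3 -2.0, and 16 rose and 13 fell of 37 in KO, beside 28% and 42.1%, led by Cat 1.74, Smox 0.99, Slc13a3 -2.79 and Srm -1.99. Sms and Txnrd1 thus rose while most fell, and Slc13a3, a dicarboxylate carrier, fell at 18 h in both genotypes. Nos3, the endothelial synthase, was listed at 0 in all libraries after LPS and Gatm in all at 1 h, so their changes depend on the added 10. For H3K27ac at the start, limma called 0 of 30 between genotypes at 0 h (1 with an unadjusted p under 0.05), 9 of 33 at 1 h beside 18.5% of all genes, 4 higher (Cat 0.60 and Aco1 0.40) and 5 lower (Slc7a7 -1.36 and Ddah2 -1.16), and 1 of 30 at 18 h (Gpx1 -0.47) beside 3.24%. Without the first libraries of KO 1 h and KO 18 h, 1 was called at 0 h, 25 at 1 h, 14 higher and 11 lower, and 3 at 18 h, and at 1 h the differences were Cat 0.82, Aco1 0.41, Slc7a7 -1.97 and Ddah2 -1.60. At 1 h the first KO library of Slc7a7 held 25.6 tags and the others 0, against 25.9, 34.6 and 27.8 in WT, and that of Cat held 179 and the others 295 and 285, against 179.6, 121 and 184 in WT. At 18 h the difference of Gpx1 was -0.43 without them. With replicate 2 or replicate 3 of each group left out, limma called 0 genotype differences at either LPS time. Its counts with replicate 1 left out were 23 at 1 h and 1 at 18 h. LPS raised it at 7 of 32 and lowered it at 9 in WT at 1 h beside 54.6% of all genes called (Slc7a7 1.97, Cs 0.63, Gatm -1.27, Sdhb -1.14), and at 18 h raised 8 and lowered 7 of 30 beside 50% (Prdx1 0.88, Slc25a10 0.79, Srm -1.82, Qdpr -1.36). In KO it rose at 7 and fell at 9 of 32 at 1 h beside 46.9% (Pycr1 0.87, Slc13a3 0.82, Gatm -1.54, Ddah2 -1.48) and rose at 6 and fell at 12 of 30 at 18 h beside 52.6% (Prdx1 0.85, Aldh18a1 0.51, Ddah2 -1.40, Srm -1.40). Without the first libraries of KO 1 h and KO 18 h it rose at 11 and fell at 12 in KO at 1 h, and rose at 7 and fell at 15 at 18 h. Leaving out 1 replicate of each group gave 8 to 24 called in WT and 7 to 22 in KO at 1 h, and 7 to 19 and 9 to 20 at 18 h, the highest counts without replicate 1.

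The genes whose Pol II pattern was most like that of 3 members were found by Pearson correlation of log2 values over the 18 Pol II libraries, among 13619 genes found in 3 or more libraries. The libraries share groups, so the values describe this pattern only. For Nos2 they were Setdb2 (0.993), Ccdc146 (0.993) and Adar (0.993). For Acod1 they were Rapgef2 (0.995), Gbp5 (0.992) and Sp140 (0.991). For Slc7a2 they were Mrpl39 (0.994), Ripk2 (0.992) and Jdp2 (0.991).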

How the data were processed

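Chromatin immunoprecipitation with sequencing for Pol II and H3K27ac was measured in 36 BMDM libraries, beside 6 inputs. According to the submitters' processing notes and the study's methods, the authors aligned reads to mm10 with HISAT2 2.1.0, removed duplicates and called regions in each library with HOMER, per the file headers with windows of 500 bp, stitching within 1000 bp and p of 0.001, without input. The deposited values are a signal, the tag count of each region per 10 M tags. The calling threshold differs between libraries with depth, so a region near it can be listed in some libraries and at 0 in others.

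Each region's signal was shared over a gene window by overlap length, which assumes even tags along a region. Long regions are therefore diluted, and all tags of the merged locus were also taken, an alternative chosen after the data were seen. GENCODE vM21 gave 21897 protein-coding genes, 54 with a duplicated symbol left out. For regions, H3K27ac calls of all libraries were merged. limma 3.58.1 (R 4.3.3) was fitted with trend on log2(signal + 10) over the 6 groups of each antibody, for features above 0 in 2 or more of the 3 libraries of a compared group, with Benjamini-Hochberg adjustment over all of them. The fit was tested on simulated data. The members, the 43 further genes and the markers were chosen with earlier results of these data known. Some genes of both lists are not reported here. All 6 members are named, and of the 43 genes the 2 called with the largest change in each direction. Replicate numbers were checked for pairing and did not pair the libraries. Alternatives were an added 1 in place of 10, no filter or presence in every library, median centring, a common density floor, narrower windows (500 bp for Pol II, 1000 bp for H3K27ac), a replicate block and leaving out replicates.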

Additional observations from a re-analysis of the deposited data

Results flagged for a closer look

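The following Pol II results differed between WT and KO in their LPS change, by the interaction term of limma, adjusted over all genes. With LPS for 1 h, the KO change minus the WT change was -2.38 at Nos2 and 0.28 at Sod2, on the log2 scale. At 18 h it was 2.07 at Acod1, 2.31 at Slc7a2 and 0.46 at Sod2. The Acod1 value was 0.92 over the merged locus and 1.33 to 2.91 with 1 replicate left out. Its call was lost without replicate 1 or without replicate 2, and its KO level at 0 h was not above input. Every KO library was lower than every WT library at Nos2 at 1 h and higher than every WT library at Slc7a2 at 18 h. At Acod1 and Sod2 the KO libraries were already lower at 0 h, which enters the interaction. Over all genes the median was 0.17 at 1 h and -0.14 at 18 h, and with median centring Sod2 at 1 h was 0.061 and no longer called by limma.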

How the results depend on the processing

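Of the alternative values of single genes, 720 kept their direction and side of the threshold, 44 lost the call, 9 gained one and 13 changed sign, and of the counts 233 stayed within 1.5 times and 44 moved. The causes were not tested, except where fewer features were tested. Median centring turned KO minus WT at 1 h to -0.061 (Gch1) and -0.22 (Sod2). Within 500 bp of the start, KO minus WT became -0.047 (Gch1) and 0.38 (Sod2) at 0 h, -0.12 (Sod2) at 1 h, -0.12 (Slc7a2) and -0.48 (Gch1) at 18 h, the LPS change in KO -0.12 (Gch1, 18 h), and the Sod2 interactions -0.49 (1 h) and -0.19 (18 h). For Sod2 this window is centred on the GENCODE start, chr17:13006846. The RefSeq promoter bases, chr17:13007589-13007816, lie outside it. These Sod2 values, and its part in the counts near the start below, are therefore not those of the RefSeq start. Over the merged locus KO minus WT at 0 h became 0.17 (Nos2). Leaving out 1 replicate spanned -0.40 to 0.057 (Nos2, 0 h) and -0.11 to 0.91 (Acod1, 18 h).

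Pol II members called between genotypes numbered 0 near the start at 0 h, 2 with an added 1 and 1 near the start at 1 h, and 4 at 18 h with median centring or the merged locus. Near the start 0 interactions were called at 1 h and 1 at 18 h. Leaving out 1 replicate gave 1 to 2 (0 h), 1 to 2 (1 h), 1 to 3 (18 h), and 1 to 3 (1 h) and 2 to 3 (18 h) for the interactions. H3K27ac members called numbered 1 at 1 h in the narrower window, with an added 1 or with a common density floor. Leaving out 1 replicate gave 0 to 1 (0 h), 0 to 3 (1 h) and 0 to 2 for the 1 h interaction. With replicates 2 and 3 only of KO 1 h and KO 18 h, 1 member was called at 0 h, 2 at 18 h, and 2 for the 1 h interaction.

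H3K27ac regions called numbered 1 at 0 h and 3 at 18 h with an added 1, 2 at 18 h with a common density floor, 1 at 18 h with presence in every library, and then 5 for LPS in WT and 4 in KO at each time. Leaving out 1 replicate gave 0 to 1 (0 h), 0 to 6 (1 h) and 1 to 4 (18 h). With replicates 2 and 3 only of KO 1 h and KO 18 h the counts were 1, 6 and 3.

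Same-numbered libraries deviated together by r of only -0.043 to 0.107 (Pol II, 1 of 9 over 0.1) and -0.052 to 0.016 (H3K27ac, 0 of 9), and 6 of 9 and 2 of 9 WT libraries fitted their own number best. With a replicate block, the counts of Pol II members called between genotypes were 2, 3 and 2 at 0, 1 and 18 h, those of H3K27ac members 0, 1 and 0, and those of regions 0, 3 and 4. With the block the 1 h calls of Gch1 (Pol II) and of Slc7a2 (H3K27ac) had adjusted p of 0.059 and 0.052 by limma.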
